A study of Mus musculus with 2 samples.

Results

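Interferon-stimulated genes are the genes that a cell switches on when an interferon binds its receptor, and 38 of them were followed in nuclei of the inflamed mouse colon. The genes were chosen by name from families known from the interferon response, with earlier results of these data known. The count tables held 36 of the 38 among 32285 genes, and Mx1 and Mx2 were not analysed here. Of the 36, 35 had at least 50 transcripts counted over both libraries together, and Ifit3 did not.

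The 38 genes fall into 8 roles. Stat2, Irf7 and Irf9 are transcription factors of the response. Ddx60, Ddx58 (RIG-I), Ifih1 (MDA5), Dhx58 (LGP2) and Zbp1 detect foreign nucleic acid or help to do so. Ifit1, Ifit2, Ifit3, Ifit1bl1 and Ifit1bl2 belong to the IFIT family, whose founding members bind viral RNA. Oas1a, Oas2, Oas3, Oasl1 and Oasl2 are the oligoadenylate synthetases and their relatives. Isg15, Herc6, Usp18, Rnf213, Dtx3l and Trim30a are the ubiquitin-like protein ISG15 and enzymes of ISG15 or ubiquitin. Parp9, Parp12 and Parp14 are ADP-ribosyltransferases. Rsad2 (viperin), Cmpk2, Eif2ak2 (PKR), Samd9l, Xaf1, Ifi44, Mx1 and Mx2 are further effectors, and Gbp2, Gbp3 and Gbp7 are guanylate-binding proteins.

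Type I and type III interferons signal through JAK kinases to a complex called ISGF3, which holds STAT2 and IRF9. ISGF3 binds the interferon-stimulated response element, a short DNA motif built on repeats of GAAA, and drives the genes followed here, while interferon gamma acts largely through another complex and drives part of the same set. In the gut, epithelial cells respond strongly to type III interferons, and the response restrains enteric viruses.

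Single-nucleus RNA sequencing was made from snap-frozen colon of C57BL/6J mice aged 8 to 12 weeks, with 1 library from wild type (WT) mice and 1 library from Ncr1cre+ Hif-1αfl+/fl+ mice, termed HIF-1α KO. In the HIF-1α KO mice the Cre recombinase was driven by the promoter of Ncr1, which encodes NKp46, so that loss of HIF-1α was limited to NKp46+ innate lymphoid cells and the epithelium, stroma and most immune cells kept the gene. Mice of both genotypes had received 2% dextran sodium sulfate (DSS), which injures the mucosa, in 4 cycles of 3 days followed by 4 days of recovery, and tissue was taken on day 28. Each library pooled 3 animals, so genotype, pool and library cannot be told apart, and no test between genotypes was possible. The tables held 4896 WT and 4772 HIF-1α KO barcodes, of which 4884 and 4702 passed the filter on detected genes and mitochondrial transcripts. Both libraries shared 3 barcodes.

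A transcript was counted as a unique molecular identifier (UMI), and levels are given as UMIs per 1000000 UMIs of the same nuclei (CPM). The WT nuclei held 13259430 UMIs and the HIF-1α KO nuclei 23605502, with a median of 2058.5 and 4197 UMIs per nucleus. Intervals are exact 95% Poisson intervals, or exact conditional intervals for ratios, and cover counting error only. They do not cover the spread between nuclei or between animals. A gene with at least 50 UMIs was called higher or lower where its intervals in both libraries did not overlap. In all nuclei Hif1a had 172 CPM in WT and 199 CPM in HIF-1α KO. Ncr1 had 1 UMI in WT and 0 in HIF-1α KO, so that the deletion, which concerns NKp46+ cells, could not be checked here.

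The promoters of the genes followed here held the letters of the response element more often than promoters at large. RefSeq promoters of GRCm38.p6, from 250 bases before to 50 bases after the start of transcription, were matched to 30 of the 38 genes, and Dhx58, Mx1, Mx2, Oas2, Parp14, Parp9, Usp18 and Zbp1 had no entry. The motif, written as GAAA, any 2 bases and GAAA again and searched on both strands, was found in 17 of the 30 genes (56.7%), beside 1079 of 27025 genes in the whole table (3.99%). The same letters followed by C were found in 15 of the 30 genes (50%), beside 0.944% of all genes. The form with 3 copies of GAAA, spaced by any 2 bases, was found in 3 of the 30 genes (10%), namely Isg15, Oas1a and Gbp3, beside 0.133% of all genes. These forms overlap, since each longer form holds the shorter one. A match describes letters in the window and does not show that a factor was bound there.

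Windows of 40 bases around the motif are shown for genes on which the results turn or whose repeats overlap, read 5′ to 3′ on the strand of the gene, with every base of a match in capitals. The Isg15 window lies at chr4:156200872-156200911 on the minus strand, and 3 overlapping matches run together in it. The Oas1a window lies at chr5:120907521-120907560 on the minus strand and the Gbp3 window at chr3:142559984-142560023 on the plus strand, each with overlapping matches. The Ifit1 window at chr19:34640770-34640809 on the plus strand is the same DNA as the Ifit1bl2 window on the minus strand, because these genes face away from each other across it. The Ifit3 window lies at chr19:34583358-34583397 on the plus strand and the Rsad2 window at chr12:26456548-26456587 on the minus strand.
Isg15: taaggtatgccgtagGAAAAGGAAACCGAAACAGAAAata
Oas1a: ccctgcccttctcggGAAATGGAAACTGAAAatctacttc
Gbp3: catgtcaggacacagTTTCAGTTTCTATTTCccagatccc
Ifit1: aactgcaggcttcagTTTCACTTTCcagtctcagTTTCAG
Ifit1bl2: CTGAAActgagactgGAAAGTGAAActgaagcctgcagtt
Ifit3: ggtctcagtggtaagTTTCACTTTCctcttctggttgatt
Rsad2: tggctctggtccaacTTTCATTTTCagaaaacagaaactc

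Ddx60 and Ifit1bl1 carried the most UMIs of the genes followed here, and their promoters are shown whole. The Ddx60 promoter lies at chr8:61927837-61928136 on the plus strand, and its pair of matches ends near the start of transcription. The Ifit1bl1 promoter shown lies at chr19:34601919-34602218 on the minus strand and holds 1 match, written on the opposite strand of the gene.
Ddx60: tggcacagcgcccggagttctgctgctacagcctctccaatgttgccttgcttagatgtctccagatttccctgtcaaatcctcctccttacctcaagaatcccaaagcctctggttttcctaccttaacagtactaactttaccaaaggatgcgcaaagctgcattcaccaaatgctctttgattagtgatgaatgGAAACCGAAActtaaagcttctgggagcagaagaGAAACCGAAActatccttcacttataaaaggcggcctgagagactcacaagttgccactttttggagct
Ifit1bl1: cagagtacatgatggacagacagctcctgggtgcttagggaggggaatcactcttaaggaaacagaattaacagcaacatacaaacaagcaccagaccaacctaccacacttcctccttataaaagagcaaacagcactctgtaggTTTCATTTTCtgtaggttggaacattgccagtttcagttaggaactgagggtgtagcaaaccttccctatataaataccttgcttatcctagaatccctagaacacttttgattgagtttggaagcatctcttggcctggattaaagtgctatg

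The summed level of the 36 genes was higher in HIF-1α KO nuclei. They gave 13507 UMIs in WT and 37026 in HIF-1α KO, which is 1019 and 1569 CPM, and the log2 ratio of HIF-1α KO over WT was 0.62 (0.59 to 0.65). Of the 35 genes with enough UMIs, 22 were called higher, none was called lower, and the intervals of 13 overlapped. Over all 14388 genes with as many UMIs, 26.9% were called higher and 26% lower. The median log2 ratio was 0.60 over the 35 genes and -0.01 over all genes, and the ratio was above 0 for 33 of the 35. In a mixture of nuclei, more nuclei of a responding cell type and more RNA in each of its nuclei cannot be told apart, so the same sums are given below within classes.

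**Figure D1:**
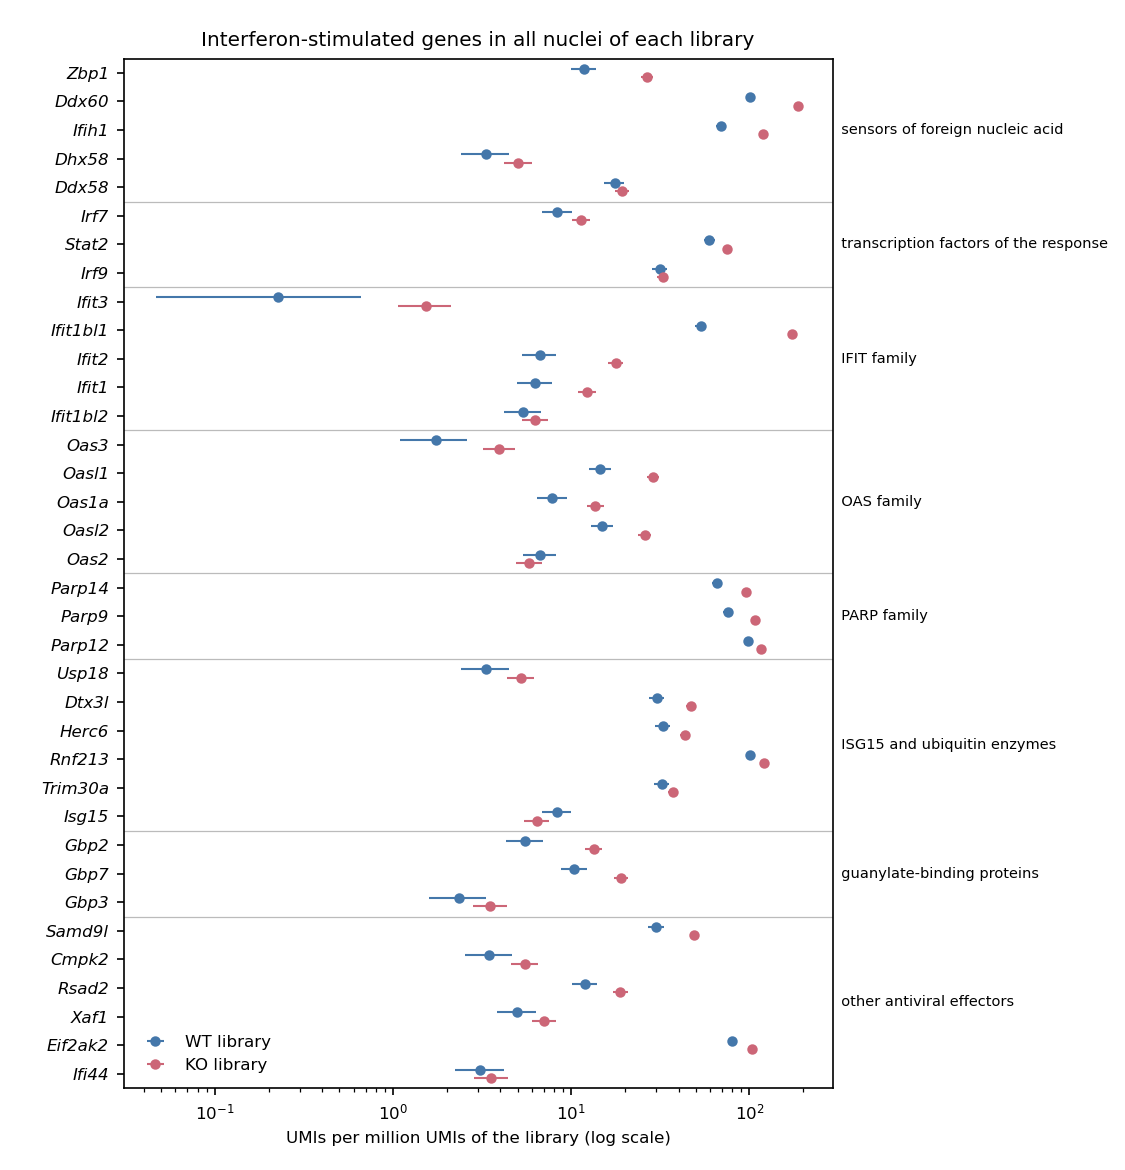
Level of each of the 36 measured genes in all nuclei of the WT and the HIF-1α KO library, in CPM on a log axis, ordered by role, with points for the value and bars for the exact 95% Poisson interval. The HIF-1α KO point lies to the right of the WT point for all genes but Isg15 and Oas2, whose intervals overlap.

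Among the transcription factors, Stat2 was called higher, with 59.6 CPM in WT and 74.7 CPM in HIF-1α KO and a log2 ratio of 0.33 (0.20 to 0.45). Irf9, the DNA-binding partner of STAT2, had 31.4 CPM in WT and 32.6 CPM in HIF-1α KO, and its intervals overlapped. The gene overlaps Rnf31 on the same strand, so its count is uncertain. Irf7, which amplifies type I interferon production, had 8.37 CPM in WT and 11.4 CPM in HIF-1α KO, again with overlapping intervals.

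Of the 5 sensors, 3 were called higher, with a median log2 ratio of 0.79 over all 5. Ddx60, a helicase that promotes signalling by RIG-I-like receptors, had 101 CPM in WT and 187 CPM in HIF-1α KO and a log2 ratio of 0.89 (0.80 to 0.98). Ifih1, the sensor of long double-stranded RNA, had 69.3 CPM in WT and 119.6 CPM in HIF-1α KO, and its log2 ratio was 0.79 (0.68 to 0.90). Zbp1, which binds Z-form nucleic acid and can start necroptosis, had the steepest ratio of the 5, at 1.17 (0.92 to 1.43), from 11.8 CPM in WT and 26.5 CPM in HIF-1α KO. For Ddx58 the levels were 17.5 CPM in WT and 19.4 CPM in HIF-1α KO, and for Dhx58, a regulator of the other sensors without signalling domains, 3.32 CPM in WT and 5.04 CPM in HIF-1α KO. Both had overlapping intervals.

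The IFIT family held the largest differences. Ifit1bl1, an IFIT-like gene on chromosome 19 (ENSMUSG00000079339, chr19:34592891-34601956 of GRCm38, minus strand), had 706 and 4078 UMIs, or 53.2 CPM in WT and 173 CPM in HIF-1α KO, and a log2 ratio of 1.70 (1.58 to 1.82). Ifit2 followed with 6.64 CPM in WT and 17.8 CPM in HIF-1α KO and a log2 ratio of 1.42 (1.09 to 1.77). Ifit1, which binds RNA that lacks cap methylation, had 6.26 CPM in WT and 12.3 CPM in HIF-1α KO and a log2 ratio of 0.97 (0.62 to 1.34). Ifit3 had 3 UMIs in WT and 36 in HIF-1α KO, a log2 ratio of 2.75 (1.09 to 5.10), and was not called because of its low count. Ifit1bl2 had 5.35 CPM in WT and 6.27 CPM in HIF-1α KO with overlapping intervals. These genes lie in 1 cluster of similar sequences, and reads of near-identical copies may have been split between them or dropped.

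Of the oligoadenylate synthetase family, 4 of 5 were called higher. The enzymes of this family make oligoadenylates that activate RNase L. Oasl1, which instead lacks enzyme activity, had 14.5 CPM in WT and 28.7 CPM in HIF-1α KO and a log2 ratio of 0.99 (0.75 to 1.22). Oasl2 had 14.9 CPM in WT and 25.8 CPM in HIF-1α KO, and Oas1a had 7.84 CPM in WT and 13.6 CPM in HIF-1α KO, close to the same ratio at 0.80 and 0.80. Oas3 was rare, with 23 and 93 UMIs and 1.73 CPM in WT and 3.94 CPM in HIF-1α KO. Oas2 went the other way within its error, with 6.71 CPM in WT and 5.80 CPM in HIF-1α KO and a log2 ratio of -0.21 (-0.61 to 0.19). Oas1a shares much of its sequence with Oas1g.

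ISG15 and the ubiquitin enzymes moved less, with 3 of 6 called higher and a median log2 ratio of 0.34. Isg15 had 8.30 CPM in WT and 6.44 CPM in HIF-1α KO, and its log2 ratio of -0.37 (-0.73 to 0.00) was the lowest of the 35 genes although its intervals overlapped. Herc6, the main ligase for ISG15 in the mouse, had 32.7 CPM in WT and 43.5 CPM in HIF-1α KO and was called higher. Rnf213, a very large ubiquitin ligase, had 101 CPM in WT and 120.3 CPM in HIF-1α KO and was called higher by a small margin at a log2 ratio of 0.26. Usp18, which removes ISG15 and blocks the type I receptor, had 3.32 CPM in WT and 5.21 CPM in HIF-1α KO, and Trim30a had 32.3 CPM in WT and 37.2 CPM in HIF-1α KO, both with overlapping intervals.

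The ADP-ribosyltransferases were called higher in all 3 cases. Parp9 had 75.5 CPM in WT and 108 CPM in HIF-1α KO, and Dtx3l, the ubiquitin ligase that PARP9 binds, had 30.2 CPM in WT and 47.1 CPM in HIF-1α KO. Their genes overlap on opposite strands, and their log2 ratios were 0.51 and 0.64. Parp14 had 65.8 CPM in WT and 95.9 CPM in HIF-1α KO. Parp12 had 98.5 CPM in WT and 116 CPM in HIF-1α KO and the lowest ratio of the family, 0.24 (0.14 to 0.34).

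Of the other 6 measured effectors, 3 were called higher. Rsad2, which makes a chain-terminating nucleotide, had 11.9 CPM in WT and 18.9 CPM in HIF-1α KO. Samd9l had 30.02 CPM in WT and 49.1 CPM in HIF-1α KO, and Eif2ak2, the kinase that halts translation on double-stranded RNA, had 80.2 CPM in WT and 104 CPM in HIF-1α KO. The remaining genes, Cmpk2, Xaf1 and Ifi44, had ratios above 0 with overlapping intervals. Cmpk2, the neighbour of Rsad2, had 3.47 CPM in WT and 5.51 CPM in HIF-1α KO, Xaf1 4.98 CPM in WT and 7.07 CPM in HIF-1α KO and Ifi44 3.09 CPM in WT and 3.56 CPM in HIF-1α KO. Of the guanylate-binding proteins, Gbp2 had 5.51 CPM in WT and 13.3 CPM in HIF-1α KO with a log2 ratio of 1.28 (0.91 to 1.67), and Gbp7 had 10.4 CPM in WT and 19.1 CPM in HIF-1α KO. Gbp3, the third, had 2.34 CPM in WT and 3.52 CPM in HIF-1α KO with overlapping intervals.

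Genes were called higher both with and without the response element in the promoter window. Of the 16 tested genes with the motif, 11 were called higher, with a median log2 ratio of 0.73. Of the 13 tested genes without it, 8 were called higher, with a median of 0.51. Isg15, whose window holds 3 overlapping matches, had the lowest ratio of all. Long genes can yield more intronic transcripts in nuclei, so the ratios were also read by gene length. In 4 groups of equal size from short to long, the genes followed here had median log2 ratios of 0.63, 0.66, 0.44 and 0.41, beside -0.04, -0.01, 0.01 and -0.02 over all genes.

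Nuclei were clustered after the genes followed here had been taken out of the clustering features, and clusters were named "X-like" from markers of other genes. The level of the genes followed here was not even across the colon. Absorptive colonocyte-like nuclei gave a summed level of 1779.9 and 2629.8 CPM in WT and HIF-1α KO, which was 2.06 and 2.18 times that of the other nuclei. Of the 36 genes, 20 were higher in these nuclei than in the others in both libraries. In each library alone 21 and 27 were, beside 17.3% of all genes in WT and 16.4% in HIF-1α KO. In WT 7 and in HIF-1α KO 1 of the 36 had too few UMIs to be called. For all genes only the share in each library alone was computed, here and in the classes below. Goblet-like nuclei gave 1331 and 1831 CPM, or 0.46 and 0.29 above the other nuclei on the log2 scale. There 5 genes were higher in both libraries, beside 12% and 14.4% of all genes, namely Ddx60, Gbp7, Oas2, Parp12 and Rsad2. The lower genes in both libraries were 4, Ifit1bl1, Ifit1bl2, Ifit2 and Parp14, beside 22% and 30.2% of all genes. Without Ddx60 the log2 ratio of goblet-like over other nuclei was 0.10 in WT and -0.094 in HIF-1α KO. The crypt classes were low, at 622 and 765 CPM in crypt base stem-like nuclei and 618 and 791 CPM in cycling crypt-like nuclei. In cycling crypt-like nuclei 17 of the 36 genes were lower than elsewhere in both libraries, beside 21.7% and 20.7% of all genes.

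In the absorptive and goblet classes, the level was highest in 1 cluster of nuclei. In the absorptive class it was cluster 5, led by Lama3, Clca4a, Car4 and Aqp8, genes of the surface of the colon, with Ifit1bl1 itself among its 10 leading genes. Cluster 5 held 8.63% of the WT UMIs and 14.4% of the HIF-1α KO UMIs, but 18.6% and 30.6% of the UMIs of the genes followed here. In the goblet class it was cluster 9, led by Clca1, Fcgbp and Zg16, which encode mucus components, with Ddx60 among its 10 leading genes. Cluster 9 held 5.71% and 8.04% of the UMIs, but 12.7% and 17.6% of those of the genes followed here. The other goblet-like clusters were far lower, with 645 and 779.7 CPM in cluster 3 and 839 and 1035 CPM in cluster 13, beside 2269 and 3423 CPM in cluster 9.

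Clusters 5 and 9 were high in different genes. Ifit1bl2 was 25.2 times as high in cluster 5 as in all other nuclei in WT and 12.7 times in HIF-1α KO, Ifit1bl1 11.1 and 12.9 times and Ifit1 6.31 and 13.2 times. In cluster 9, Ddx60 was 14.3 and 14.4 times as high as elsewhere, Oas2 6.09 and 8.39 times and Oas3 7.22 and 6.90 times, the last from 7 and 35 UMIs. The folds that follow are over both libraries together. Classes and clusters with at least 50 nuclei in each library were compared for each gene followed here. Cluster 5 had the highest level of 10 genes in both libraries and cluster 9 of 5 genes. The same count was not made over all genes. Whether these counts are particular to the genes followed here was therefore not tested. Cluster 6, the other absorptive cluster, was led among these genes by Ifi44 at 2.34 times, Parp12 at 1.82 times and Oas1a at 1.72 times the level elsewhere. Stat2 and Eif2ak2 were close to even, at 1.12 and 0.95 times the level elsewhere in goblet-like cluster 3.

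**Figure D2:**
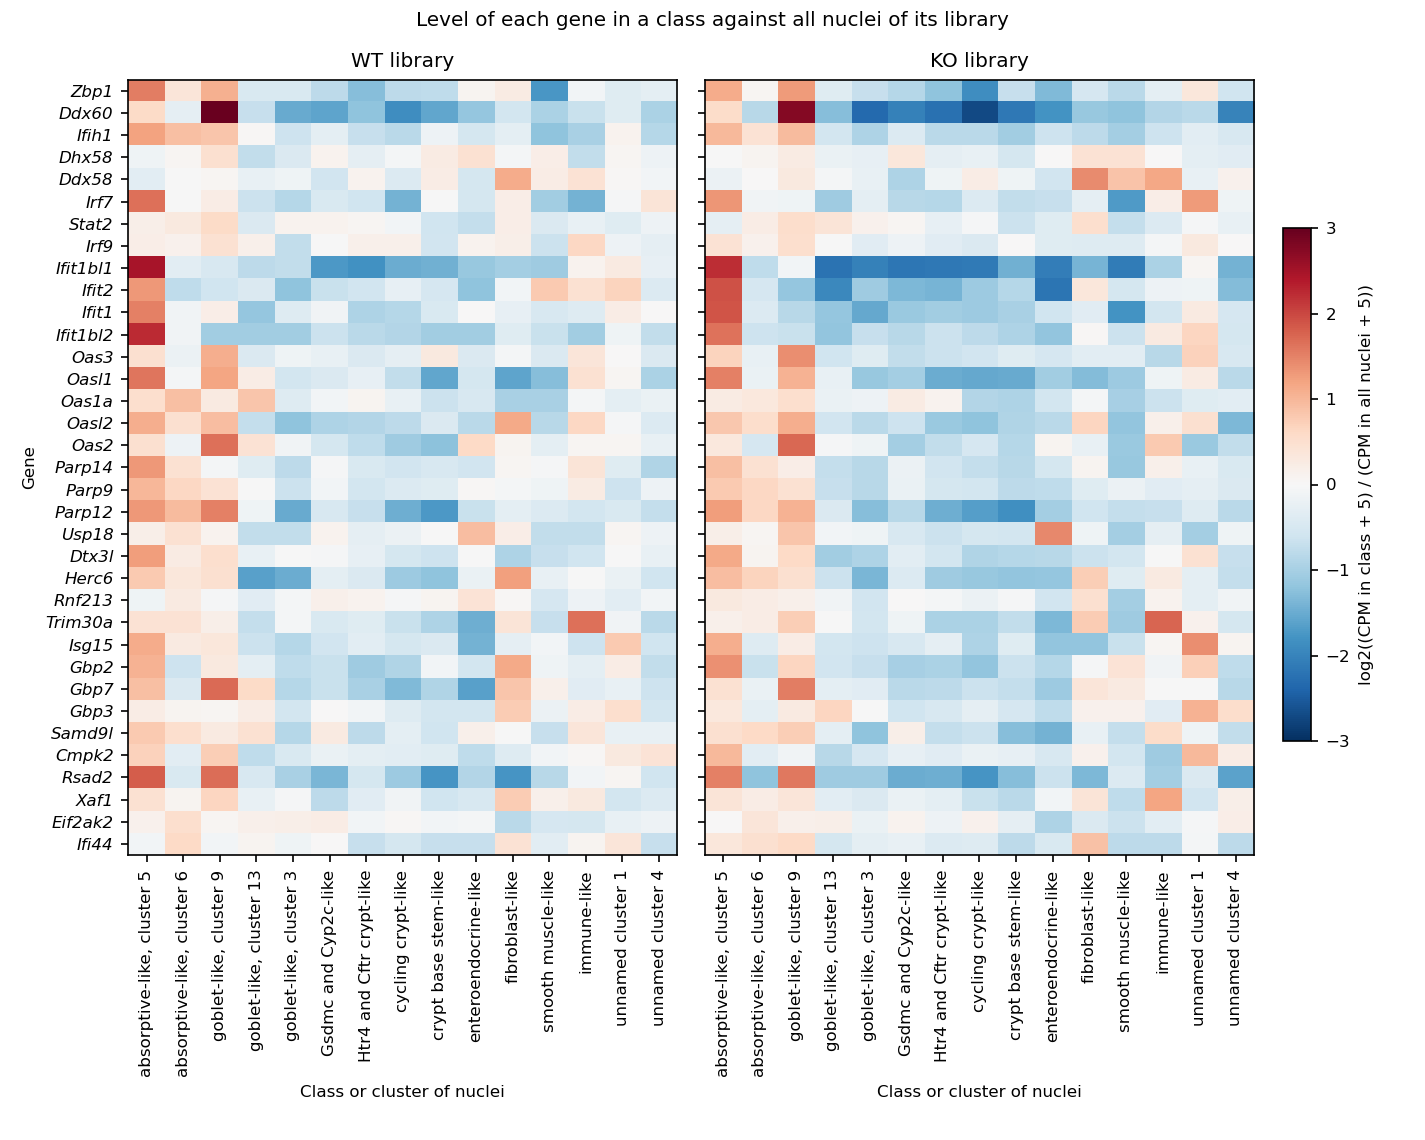
Level of each of 35 genes in each class or cluster relative to all nuclei of the same library, as the log2 of the ratio after a small constant was added to both levels, for WT and HIF-1α KO. IFIT genes are darkest in absorptive colonocyte-like cluster 5 and Ddx60, Oas2 and Oas3 in goblet-like cluster 9 in both libraries.

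Stromal and immune nuclei showed other leading genes. In fibroblast-like nuclei Ddx58 was 2.85 times as high as elsewhere, Herc6 2.10 times and Oasl2 1.91 times, and Ddx58 and Herc6 were higher in both libraries beside 14.6% and 14.1% of all genes. Ddx60, Ifit1bl1, Oasl1 and Rsad2 were lower there in both, beside 16.7% and 14% of all genes. In each library 5 genes were higher in these nuclei and 6 lower, which was near the shares of all genes. In immune-like nuclei Trim30a was 3.86 times as high, Ddx58 2.31 times and Samd9l 1.51 times. Trim30a was higher in both libraries beside 7.85% and 15.1% of all genes, and Ifih1 was lower in both beside 9.67% and 13.7%. In WT and HIF-1α KO alone 1 and 4 genes were higher and 1 and 4 lower, no more than those shares. Usp18 led in enteroendocrine-like nuclei at 4.53 times the level elsewhere, from 23 UMIs. Ddx58 led in smooth muscle-like nuclei at 1.56 times. The remaining classes showed little, with Dhx58 at 1.62 times in Gsdmc and Cyp2c enterocyte-like nuclei, Oas1a at 1.16 times in Htr4 and Cftr crypt enterocyte-like nuclei, Ddx58 at 1.00 times in crypt base stem-like nuclei and Eif2ak2 at 1.05 times in cycling crypt-like nuclei.

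RNA released from broken cells enters every droplet, so the low levels of the most abundant genes were set beside those of markers of their main source. In Gsdmc and Cyp2c enterocyte-like nuclei the absorptive markers summed to 14.6% and 17.8% of their level in cluster 5, and Ifit1bl1 to 3.97% and 4.21% of its own. Ifit1bl1 was likewise below the marker share in both libraries in the Htr4 and Cftr, crypt base stem, enteroendocrine, fibroblast and smooth muscle classes. The same held in cluster 7 of the cycling crypt class. Whether Ifit1bl1 or the markers in these nuclei came from free RNA or from the nuclei themselves was not tested. In cluster 1 it was 20.5% and 21.9% beside marker shares of 20.2% and 26%, and in goblet-like cluster 9 it was 11.7% and 19.9% beside 13.7% and 16.6%. Ddx60 in cluster 5, by contrast, had 18.5% and 21.2% of its level in goblet-like cluster 9, where the goblet markers had 3.79% and 6.90% of theirs. Whether Ddx60 in cluster 5 came from free goblet RNA was not tested.

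The higher level in HIF-1α KO was seen in 11 of the 12 classes and unnamed clusters with at least 50 nuclei in each library, in the sense that the interval of the log2 ratio lay above 0. In Htr4 and Cftr crypt enterocyte-like nuclei the interval included 0 once every nucleus had been reduced at random to 1000 UMIs, at 0.11 (-0.11 to 0.33), which left 10 classes. Without this step the median ratio over tested genes of the list was 0.10 there, 0.18 in crypt base stem-like nuclei and 0.27 in unnamed cluster 4, beside 0.075, 0.16 and 0.23 over all genes. In smooth muscle-like nuclei the median was 0.087, beside 0.026 over all genes. Only 3 of 6 tested genes had a ratio above 0 there, and 8 of 15 in Htr4 and Cftr crypt enterocyte-like nuclei. The absorptive and goblet marker shares described above were higher in HIF-1α KO in most classes. In crypt base stem-like nuclei they were 7.95% and 4.61% in WT and 9.19% and 8.18% in HIF-1α KO. The goblet share was 5.88% and 13.6% in immune-like nuclei but 14.4% and 11.8% in cycling crypt-like cluster 16. In cluster 7 of the same class it was 3.32% and 5.48%. Whether a marker share came from free RNA or from the nuclei themselves was not tested. How much free RNA added to each ratio was not tested. In absorptive colonocyte-like nuclei, with 540 WT and 851 HIF-1α KO nuclei, the log2 ratio was 0.56 (0.51 to 0.61). Of 30 genes tested there, 15 were called higher and none lower, beside 14% and 16.6% of all genes. In goblet-like nuclei, with 592 and 961 nuclei, the log2 ratio was 0.46 (0.40 to 0.52), and 9 of 24 genes were called higher and none lower, beside 14.8% and 10.5%. Enteroendocrine-like nuclei were the exception, with 762 and 754 CPM and a log2 ratio of -0.01 (-0.21 to 0.18).

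**Figure D3:**
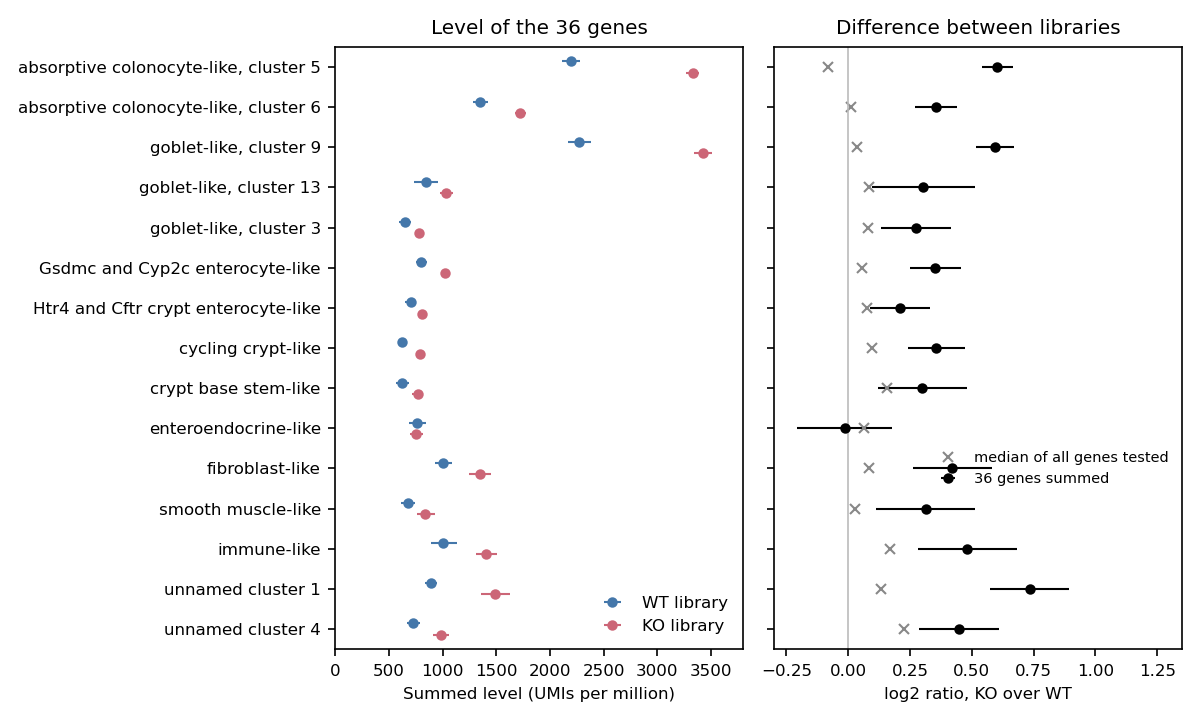
Left, summed level of the genes in CPM in each class and cluster of each library; right, log2 ratio of HIF-1α KO over WT with its exact 95% interval, and a cross for the median ratio of all genes tested there. Cluster 5 and cluster 9 reach the highest sums in both libraries, and only the enteroendocrine-like ratio has its centre below 0.

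In absorptive colonocyte-like nuclei Ifit2 and Gbp2 had the largest ratios of the called genes. Ifit2 had 12.95 and 50.1 CPM, a log2 ratio of 1.95 (1.40 to 2.55). Ifit1bl1 had 182 and 506 CPM, and Ifit1 had 16.5 and 36.6 CPM. Gbp2 had 9.38 and 26.9 CPM and a log2 ratio of 1.52 (0.86 to 2.25). Gbp2 encodes a guanylate-binding protein that coats intracellular bacteria and their vacuoles. Among the sensors, Ddx60 had 118 and 200.1 CPM, Ifih1 150.1 and 207 CPM and Zbp1 30.4 and 48.1 CPM. Oasl1 had 34.4 and 62.2 CPM and Oasl2 30.4 and 44.9 CPM. The PARP9 and DTX3L pair was higher too, with 138 and 180.2 CPM for Parp9 and 58.1 and 84.2 CPM for Dtx3l. Parp14 had 132 and 161 CPM, Herc6 51.4 and 80.4 CPM, Rnf213 106 and 145 CPM and Samd9l 50.03 and 73.4 CPM.

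Both absorptive clusters were higher in HIF-1α KO. In cluster 5, where 10 of 28 genes were called higher beside 11.8% of all genes, the log2 ratio of the sum was 0.60 (0.54 to 0.67). The 10 were Ifit1, Ifit2, Ifit1bl1, Oasl1, Ddx60, Ifih1, Dtx3l, Herc6, Rnf213 and Gbp2. Ifit1bl1 reached 316 and 819.7 CPM, from 362 and 2793 UMIs. Ifit2 reached 23.6 and 80.1 CPM and Ddx60 152 and 275 CPM. In cluster 6, where 5 of 19 were called higher beside 12% of all genes, the log2 ratio was 0.35 (0.27 to 0.44). Those were Ifit1bl1 with 42.04 and 99.4 CPM, Parp9 with 119 and 169 CPM, Parp14 with 91.4 and 133 CPM, Herc6 with 42.95 and 71.6 CPM and Samd9l with 44.8 and 76.95 CPM.

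In goblet-like nuclei the called genes were Ddx60, Ifit1bl1, Stat2, Oasl2, Ifih1, Parp14, Zbp1, Samd9l and Gbp2. Ddx60 had 355 and 519 CPM and a log2 ratio of 0.55 (0.43 to 0.67). Zbp1 had 16.5 and 36.9 CPM with 1.16 (0.60 to 1.76). The rare Gbp2 had 8 and 66 UMIs and 4.27 and 13.1 CPM. Ifit1bl1 had 32.5 and 84.6 CPM, Stat2 72.02 and 96.7 CPM, Ifih1 81.6 and 131 CPM, Parp14 49.1 and 74.9 CPM and Samd9l 27.7 and 48.1 CPM. Oasl2 had 30 and 157 UMIs and a log2 ratio of 0.96.

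Cluster 9 accounted for most of these calls, with 10 of 22 genes called higher beside 10.8% of all genes and a log2 ratio of the sum of 0.59 (0.52 to 0.67). There Ddx60 had 819.8 and 1299 CPM, from 621 and 2466 UMIs. Ifit1bl1 had 36.96 and 163 CPM and a log2 ratio of 2.14 (1.58 to 2.76). Its WT share was below that of the absorptive markers given above. Zbp1 had 30.4 and 71.1 CPM, Samd9l 36.96 and 85.3 CPM and Ifih1 128 and 236 CPM. The other called genes were Oasl2, Parp9, Parp14, Trim30a and Gbp2. In cluster 3 none of 13 genes was called higher beside 11.3% of all genes, and in cluster 13 Stat2 alone of 9 was, with 42.9 and 99.95 CPM, beside 6.66%.

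The difference in goblet-like nuclei changed with depth, and HIF-1α KO nuclei held more UMIs. Among nuclei with 4000 to 8000 UMIs, 115 in WT and 481 in HIF-1α KO, the log2 ratio of the goblet-like sum was 0.09 (-0.02 to 0.19). Among nuclei with 2000 to 4000 UMIs it was 0.08 (-0.03 to 0.19), and both intervals included 0. Within the goblet-like clusters at that depth it was 0.44 (0.23 to 0.66) in cluster 3, 0.41 (0.27 to 0.55) in cluster 9 and 0.66 (0.29 to 1.05) in cluster 13. Cluster 9 made up 35.7% of the WT goblet-like nuclei of that depth and 20.4% of the HIF-1α KO ones, against 32.6% and 31.3% at all depths. In absorptive colonocyte-like nuclei the log2 ratio was 0.61 (0.50 to 0.73) at 2000 to 4000 UMIs and 0.45 (0.38 to 0.53) at 4000 to 8000 UMIs. Over all nuclei of 2000 to 4000 UMIs it was 0.37 (0.32 to 0.43), and 11 of 29 genes were called higher beside 19.3% of all genes. Over all nuclei of other depths it was 0.65 (0.55 to 0.75) at 1000 to 2000 UMIs and 0.32 (0.27 to 0.37) at 4000 to 8000 UMIs. At 8000 to 16000 UMIs it was 0.53 (0.45 to 0.61).

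In the crypt and enterocyte classes few genes were called. Of 16 genes tested in Gsdmc and Cyp2c enterocyte-like nuclei, Ifit1bl1 and Ifih1 were called higher, beside 12.7% of all genes. Ifih1 had 55.8 and 89.5 CPM there, and Ifit1bl1 had 12.6 and 34.5 CPM, below the marker share given above. In Htr4 and Cftr crypt enterocyte-like nuclei the same genes were called among 15, beside 13% of all genes, with Ifih1 at 41.1 and 66.7 CPM and Ifit1bl1 at 11.5 and 35.03 CPM. Crypt base stem-like nuclei had Ifit1bl1 alone among 8, with 16.3 and 60.5 CPM, beside 13.8%. In cycling crypt-like nuclei Ifit1bl1, Ifih1 and Eif2ak2 were called among 15, beside 15% of all genes. Ifih1 had 37.2 and 66.5 CPM there, Eif2ak2 82.2 and 114 CPM and Ifit1bl1 15.6 and 35.6 CPM. Most nuclei of the class lay in cluster 7, 400 of 464 in WT and 253 of 313 in HIF-1α KO. In that cluster Ifit1bl1 was below the marker share. Ifih1 was thus called higher in both of these enterocyte classes, in cycling crypt-like, absorptive colonocyte-like and goblet-like nuclei, and in unnamed cluster 4 described below.

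Outside the epithelium the sums were higher but single genes were rarely called. Fibroblast-like nuclei had 1004 and 1344 CPM and a log2 ratio of 0.42 (0.26 to 0.58), and Rnf213 alone of 11 genes was called higher, with 103 and 169 CPM, beside 6.75% of all genes. Immune-like nuclei had 1003 and 1401 CPM and 0.48 (0.28 to 0.68), and none of 10 genes was called, beside 9.64% of all genes. Smooth muscle-like nuclei had 675 and 839 CPM and 0.31 (0.11 to 0.51), with none of 6 called beside 7.86%. The T and innate lymphoid-like nuclei, which hold the cells that could carry the deletion, were 11 in WT and 58 in HIF-1α KO. They had 1371 and 1462 CPM and a log2 ratio of 0.09 (-0.51 to 0.76). In enteroendocrine-like nuclei none of 8 genes was called higher beside 6.01% of all genes, and Rnf213 was called lower, with 135 and 78.9 CPM, beside 3.33%. Endothelial nuclei were fewer than 50 in HIF-1α KO, and their sums were 1297 and 1956 CPM in blood endothelial-like and 1052 and 2141 CPM in lymphatic endothelial-like nuclei. Enteric neuron-like nuclei, 27 and 22 in number, had 471 and 717 CPM. Enteric glia-like nuclei, 12 and 9 in number, had 653 and 1204 CPM.

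The unnamed clusters were low in UMIs and passed no marker rule. Cluster 1, led by AY036118 and other genes not typical of a cell type, had 753 WT and 164 HIF-1α KO nuclei, 893 and 1486 CPM and a log2 ratio of 0.73 (0.57 to 0.89). Of 10 genes tested in it Ifit1bl1 was called higher, with 64.8 and 179.9 CPM, beside 10.5% of all genes. Its share was near that of the absorptive markers given above. Isg15 was 2.97 times as high in cluster 1 as elsewhere, Irf7 1.38 times and Ifit2 1.02 times. Cluster 4 had 723 and 986 CPM and 0.45 (0.29 to 0.61), and Ifih1, Parp14 and Eif2ak2 were called higher among 9, beside 17.2%. Ifih1 had 36.3 and 84.8 CPM there, Parp14 32.6 and 69.01 CPM and Eif2ak2 71.4 and 121 CPM.

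Counts per nucleus were compared after every nucleus had been thinned to 1000 UMIs, which left out 63 shallower HIF-1α KO nuclei and no WT nucleus. The share of nuclei without any UMI of the genes followed here was 44.6% in WT and 35.9% in HIF-1α KO. The unthinned values are the CPM above. In cluster 5 it was 19.6% and 12.6%, while nuclei with 5 or more such UMIs made up 12.2% and 19.8%. In cluster 9 it was 20.2% and 13.3%, with 13.5% and 16.9% at 5 or more. Nuclei with 3 or more such UMIs made up 34.7% and 46.2% in cluster 5 but 33.7% and 33.6% in cluster 9. The difference thus included nuclei of low and of high level in cluster 5, while at the high end of cluster 9 it depended on the cut.

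A few nuclei were far above the rest. Nuclei with 10 or more of 1000 UMIs from these genes were 14 of 4884 in WT (0.287%, exact interval 0.157 to 0.480%) and 40 of 4639 in HIF-1α KO (0.862%, 0.617 to 1.17%). They held 3.99% and 11.2% of the UMIs of the genes followed here. In cluster 5 there were 2 of 245 in WT and 17 of 459 in HIF-1α KO, with overlapping intervals of 0.099 to 2.92% and 2.17 to 5.86%. The highest nucleus there had 11 UMIs in WT and 61 in HIF-1α KO. In cluster 6 there were 4 of 295 and 5 of 392, or 1.36% and 1.28%, so no higher share was seen there. In cluster 9 there were 7 of 193 and 17 of 301, holding 21.7% and 36.2% of the UMIs. The intervals of these shares of nuclei, 1.47 to 7.33% and 3.32 to 8.89%, overlapped too. Goblet-like cluster 3 had none of 318 and none of 465, which allows shares of up to 1.15% and 0.79% by the exact interval. With the top 1% of nuclei left out, the log2 ratio in all nuclei was 0.51. Whether such nuclei held RNA of more than 1 cell was not tested.

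**Figure D4:**
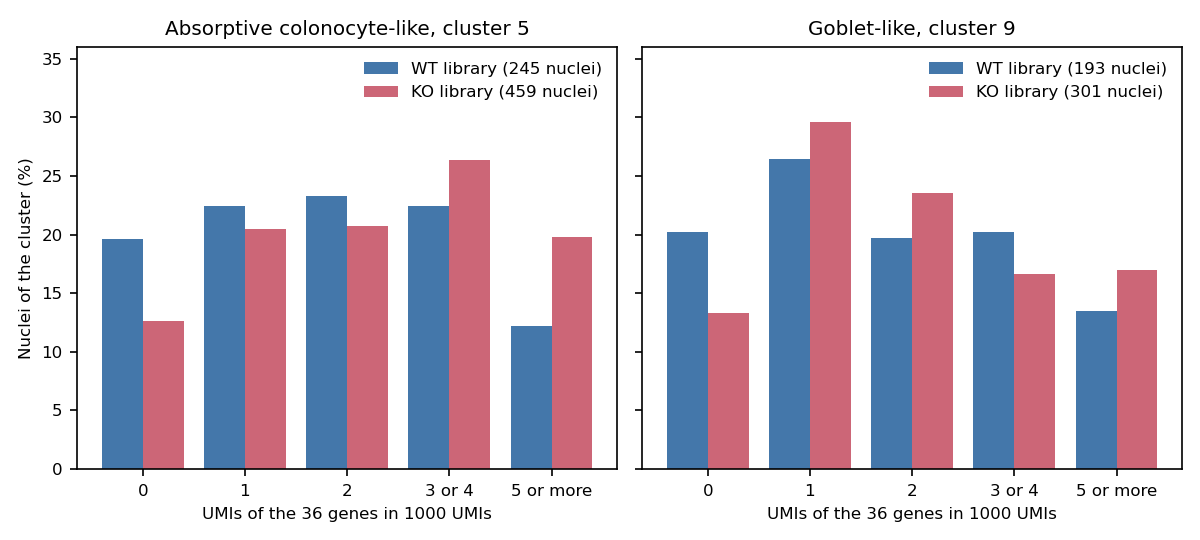
Share of nuclei, in percent, with 0, 1, 2, 3 or 4, and 5 or more UMIs of the genes per 1000 UMIs, in absorptive colonocyte-like cluster 5 and goblet-like cluster 9, with bars for WT and HIF-1α KO. The bar at 0 is lower in HIF-1α KO in both clusters (19.6 and 12.6% in cluster 5), and the bar at 5 or more is higher (12.2 and 19.8%).

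In clusters 5 and 9, nuclei with 2 or more UMIs of Ddx60 or Ifit1bl1 had higher means of the other genes followed here. In cluster 9 of HIF-1α KO, nuclei without a Ddx60 UMI in 1000 had a mean of 1.64 (1.48 to 1.81) UMIs from the other genes followed here, and those with 2 or more Ddx60 UMIs had 4.63 (4.00 to 5.34). The same means in WT were 1.30 (1.11 to 1.52) and 2.39 (1.90 to 2.98). In cluster 5 of HIF-1α KO the other genes had a mean of 1.93 (1.76 to 2.10) in nuclei without Ifit1bl1 and 3.12 (2.75 to 3.51) in nuclei with 2 or more. In WT these were 1.80 (1.62 to 2.00) and 2.33 (1.55 to 3.37), with overlapping intervals. Grouped by Ddx60 instead, cluster 5 nuclei of HIF-1α KO had 2.60 (2.45 to 2.76) and 9.62 (8.16 to 11.3) UMIs from the others. The latter mean came from 16 nuclei. In WT the same grouping gave 1.90 (1.72 to 2.10) and 3.80 (2.29 to 5.93), the latter from 5 nuclei. These intervals cover counting error only and leave out the spread between nuclei, so they are too narrow for means over nuclei. The variance of the thinned sum per nucleus was 5.40 times its mean in cluster 5 and 8.73 times in cluster 9 of HIF-1α KO. In WT it was 1.83 times in cluster 5 and 3.93 times in cluster 9.

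Upstream of these genes, no ligand could be followed. Of 14 interferon genes listed, 13 had no UMI in either library, Ifng and Ifnb1 among them, and Ifnk had 0 UMIs in WT and 8 in HIF-1α KO. As a one-sided limit a count of 0 allows up to 3 UMIs, which is 0.226 CPM in WT and 0.127 CPM in HIF-1α KO. Of the 6 receptor chains, those for interferon gamma were called higher, beside 26.9% of all genes. Ifngr1 had 117 and 165 CPM and Ifngr2 54.2 and 75.1 CPM. Ifnar2, a chain of the type I receptor, was called lower, with 11.99 and 6.82 CPM, beside 26%. Its partner Ifnar1 had 14.6 and 17.6 CPM, and the type III receptor chains Ifnlr1 and Il10rb had 26.1 and 31.1 CPM and 43.4 and 48.7 CPM, all with overlapping intervals. Ifngr1 was 370.4 and 416 CPM in cluster 5, beside 62.03 and 80.6 CPM in crypt base stem-like nuclei.

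Of 14 signalling genes, 8 were called higher and none lower, beside 26.9% and 26% of all genes, with a median log2 ratio of 0.23. Among them Irf1 had 91.2 and 120.4 CPM, Irf3 14.3 and 20.4 CPM and Jak2 122 and 168 CPM. Stat3, Irf2, Irf8 and Ptpn2, called higher as well, had log2 ratios of 0.20, 0.32, 0.27 and 0.23. Of 8 tested genes of upstream sensing, Tbk1, the kinase of IRF3, was called higher with 74.1 and 97.4 CPM. Cgas, the sensor of cytosolic DNA, was called lower with 7.47 and 4.66 CPM, and so was Ikbke with 60.5 and 50.2 CPM. These shares, 1 higher and 2 lower, were no larger than those of all genes.

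Not every gene that interferon induces was higher. Of 37 further interferon-stimulated genes tested, 12 were called higher and 4 lower, with a median log2 ratio of 0.20, beside 26.9% and 26% of all genes, so that the share called higher was near that of all genes and the share called lower was smaller. Those higher included Rtp4 at 1.10, Samhd1 at 1.07, Sp110 at 1.01, Lgals9 at 0.89, Sp100 at 0.83, Phf11d at 0.80, Trim30d at 0.70, Oas1g at 0.55, Tor3a at 0.39, Znfx1 at 0.35 and Epsti1 at 0.28. Lower were the membrane proteins Bst2 (tetherin), with 7.01 and 2.58 CPM, and Ifitm3, with 5.88 and 2.58 CPM. Trim21 and Pml were lower too, at log2 ratios of -0.70 and -0.30.

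The list of genes driven mainly by interferon gamma had 9 of 25 called higher, 5 lower and a median log2 ratio of 0.18, which was near the shares of all genes, 26.9% and 26%. Nos2, the inducible nitric oxide synthase, had 20.7 and 69.3 CPM, and Ido1, which degrades tryptophan, had 10.5 and 27.3 CPM. The immunity-related GTPases Irgm2, Igtp and Ifi47 had log2 ratios of 1.24, 1.11 and 1.19. Psmb8, a subunit of the immunoproteasome, had 1.89 and 6.18 CPM, whereas Psmb10, another subunit, had 29.04 and 20.1 CPM. The chemokine Cxcl10 had 10 and 52 UMIs and a log2 ratio of 1.55 (0.55 to 2.69). Nlrc5, the activator of class I genes, was at 0.89 and Cd274 (PD-L1) at 0.91, while the class I gene H2-K1 itself was lower, with 249 and 163 CPM. Tap2, Gbp8 and Gbp9 were lower at -0.47, -0.90 and -1.29.

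**Figure D5:**
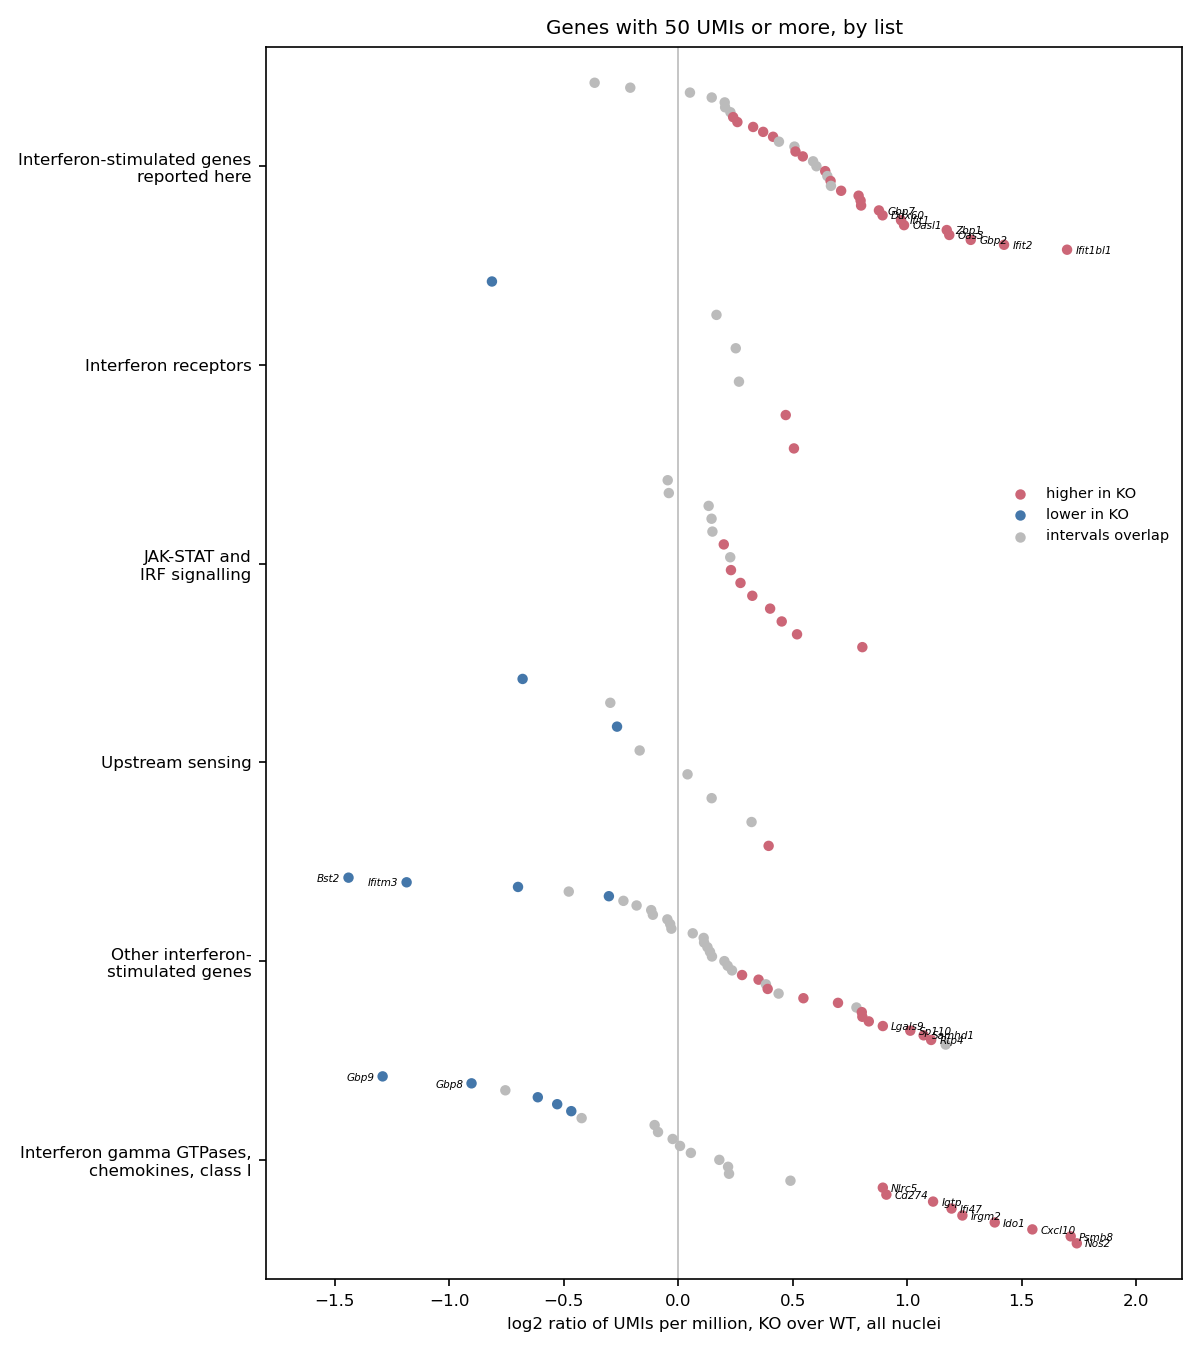
Log2 ratio of HIF-1α KO over WT in all nuclei for each gene with at least 50 UMIs, by list, with colours for genes called higher, called lower and with overlapping intervals. None of the 35 genes followed here is called lower, while the receptors, upstream sensing, further interferon-stimulated and interferon gamma lists hold genes on both sides of 0.

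Across 12 classes and unnamed clusters in both libraries, 24 points in all, the levels of some genes ran in parallel with the summed level. The points of a library share its depth and free RNA, so the likeness is a description. Of the genes in the sum, Parp12 was the most like it, with Pearson's r of 0.92 on log2 levels centred within each library, and Zbp1 had 0.89. Ddx58 had 0.13 and Rnf213 and Eif2ak2 0.33, so these were spread differently over the classes. Of the 10971 genes compared, those outside the lists most like the sum were Sprr2a2 (0.91), Apobec1 (0.91), Skil (0.90), Cyp2d34 (0.90) and Mxd1 (0.90).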

How the data were processed

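Nuclei were isolated from snap-frozen colon and processed with the 10x Genomics 3′ v3.1 chemistry, 1 library per genotype. The authors deposited raw counts of UMIs per gene and nucleus from Cell Ranger 7.0.1 with an mm10 reference, after its default calling of cells; whether intronic reads were counted is not given in the sources used here. Nuclei with 400 to 5000 detected genes and at most 10% mitochondrial UMIs were kept, as in the study, which left 13259430 and 23605502 UMIs. No doublet caller was run beyond this upper limit.

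Libraries were integrated in Seurat 5.3.0 (R 4.3.3) on 2000 variable genes, from which 16 of the genes followed here were removed, with 30 principal components and a resolution of 1. A cluster was named where at least 3 markers of a class were at least 2-fold higher than elsewhere and found in 10% of its nuclei, and no other class had more markers among its 10 leading genes. This left 23 clusters, 2 of them unnamed. Names were rebuilt here and may differ from those of the study.

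UMIs were summed per library and class in Python 3.11.15 (numpy 2.4.6, pandas 2.3.3, scipy 1.17.1), with exact Poisson and conditional binomial intervals. With 1 library per genotype no p-value was computed. Alternatives were other clusterings and assignments, thinning to 1000 UMIs, nuclei of 2000 to 4000 UMIs, the count minimum, scaling by edgeR 4.0.16 (TMM) and DESeq2 1.42.0 (size factors), and leaving out Ddx60, Ifit1bl1, unnamed clusters or the highest nuclei. The depth bands, the weighting by clusters and the last 3 omissions were chosen after seeing the data.

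All genes of the list were named, together with those called in each class, the 3 highest of each class over the other nuclei, called genes of the pathway lists (1 gene counted there is not reported by name here), and the 5 outside genes most like the sum. In each class with fewer than 50 nuclei in either library only the sum is given. For T and innate lymphoid-like nuclei its ratio is given too, and other groups within the immune class are not reported here. The genes, lists and markers were chosen with earlier results of these data known. Gene positions are from GRCm38 with 99.6% of gene IDs matched, and promoters from RefSeq.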

Additional observations from a re-analysis of the deposited data

Results flagged for a closer look

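Rnf213 differed in direction between classes. Its log2 ratio of HIF-1α KO over WT was 0.45 in absorptive colonocyte-like nuclei and 0.71 in fibroblast-like nuclei, and -0.77 in enteroendocrine-like nuclei, where it had 63 UMIs in WT and 62 in HIF-1α KO. With 1 library per genotype the difference between the classes was not tested. Rnf213 was the only one of the 36 genes whose ratio interval lay above 0 in some class and below 0 in another.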

How the results depend on the processing

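No paired analysis was possible because each genotype had 1 library. The log2 ratio of the sum in all nuclei, 0.62, stayed above 0 under every alternative tried. It was 0.57 with each nucleus weighted equally, 0.56 after thinning, 0.65 with TMM scaling and 0.59 without Ddx60. It was 0.48 without Ddx60 and Ifit1bl1, 0.59 without the unnamed clusters and 0.51 without the top 1% of nuclei. In nuclei of 2000 to 4000 UMIs the ratio was 0.37, and in nuclei of 4000 to 8000 UMIs 0.32. With HIF-1α KO classes or clusters weighted by their WT shares it was 0.48 or 0.47. In absorptive colonocyte-like nuclei (0.56) it was 0.51 after thinning, 0.71 with size factors, 0.70 with TMM and 0.38 without Ddx60 and Ifit1bl1. At 2000 to 4000 UMIs these nuclei had 0.61, and at 4000 to 8000 UMIs 0.45. In goblet-like nuclei (0.46) it was 0.35 after thinning, 0.39 at resolution 2, 0.31 without integration, 0.32 with nuclei assigned by their own score, 0.38 without Ddx60 and Ifit1bl1, and 0.078 in the depth band. For enteroendocrine-like nuclei it ran from -0.10 to 0.13 and was below 0 in 8 of 10 alternatives.

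The 22 genes called higher became 11 in the depth band and 15 to 24 under the others, and the median of 0.60 became 0.41 after thinning and 0.39 in the depth band. The log2 ratio of absorptive colonocyte-like over other nuclei (1.04 in WT, 1.13 in HIF-1α KO) was 1.12 and 1.25 without Ddx60, 1.26 and 1.37 without integration, and 1.06 in HIF-1α KO by own score. For goblet-like nuclei (0.46 and 0.29) it was 0.10 and -0.094 without Ddx60, so that the direction in HIF-1α KO reversed, 0.64 in WT without integration, and 0.75 and 0.43 by own score. For immune-like nuclei of HIF-1α KO it went from -0.17 to 0.063 after thinning. The 3-repeat motif was in 10% of the promoters. Classes that an alternative clustering did not name gave no value there. The causes of these shifts were not tested.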
